A study of Homo sapiens with 4 samples.

Results

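A panel of 42 genes whose proteins build the mitotic spindle, compact the chromosomes, duplicate the centrioles and divide the cell was examined among the 60880 genes listed in RNA-Seq counts of human prostate cancer cells. The genes were taken by name, with earlier results of these data known, and each of the 42 matched 1 Ensembl identifier of the count files. They were divided by known function into 12 spindle motors, 9 spindle assembly factors, 8 condensin subunits, 6 cytokinesis factors, 5 centriole duplication genes and 2 mitotic kinases. RNA came from 2 libraries of LNCaP95, an androgen-independent derivative of LNCaP prostate cancer cells (genotype label WT, replicates 1 and 2), and from 2 libraries of LN95(KO), its derivative in which UGT2B17, an enzyme that couples androgens to glucuronic acid, was knocked out (genotype label UGT2B17 KO, replicates 3 and 4). All cells were kept in RPMI1640 medium with charcoal-stripped serum, from which most steroids have been removed, and were left untreated. The labels name LN95 as the line of all 4 libraries, whereas the design line of the series calls the knockout line LNCaP, and how many knockout clones were used is not given in the sources used here. Nothing states that the libraries of a group came from separate cultures, so the p-values measure the spread between these libraries, which may be technical.

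At mitosis, kinesin motors and microtubule-binding proteins organise microtubules into a bipolar spindle, condensin complexes fold each chromosome into a compact rod, and the kinases AURKA and PLK1 drive centrosome maturation and spindle assembly. Centrioles, which form the core of the spindle poles, are copied once per cell cycle by a pathway headed by the kinase PLK4. After the chromosomes have parted, proteins of the central spindle and the contractile ring cut the cell. Most of these genes are transcribed late in the cell cycle, so their mRNA is scarce in resting cells and abundant in cells passing through G2 phase and mitosis. In RNA from bulk cultures, a larger share of cycling cells and more RNA per cell cannot be told apart.

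UGT2B17 itself was counted 2788 and 2748 times in the LNCaP95 libraries and 21 and 20 times in the LN95(KO) libraries. The libraries therefore separated as their labels say, with a log2 fold change of -7.04 ± 0.10 (standard error, SE, adjusted p = 1.2e-18). Depth ranged from 17330338 to 18813193 reads on genes, and a count of 0 allows up to 3 counts, or 0.163 to 0.169 counts per 1000000 (CPM), in any 1 library. Luminal prostate markers (8 of 8 with reads) summed to 3116 to 3131 CPM in LNCaP95 and 2960 to 3093 CPM in LN95(KO). The summed level of 3 basal markers was 0.163 to 0.164 against 1.02 to 1.26 CPM, that of 5 endothelial and leukocyte markers 0.437 to 0.488 against 2.77 to 3.18 CPM (CDH5, CD3E and CD68 at 0 in every library), that of 5 fibroblast markers 30.5 to 31.2 against 34.5 to 37 CPM (DCN at 0) and that of 4 neuroendocrine markers 2.44 to 2.46 against 2.30 to 2.43 CPM (CHGA at 0). For CD68, 85.6% of exon bases lie under other annotated genes, so its 0 need not reflect the whole transcript. PECAM1, also listed with the endothelial markers, matched no identifier of the count files. The part of these markers in the results below was not tested.

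The promoters of the panel were also read for the letters that mark mitotic genes. The cell cycle genes homology region (CHR), with the core TTTGAA, is bound by the DREAM complex in resting cells and by B-MYB and FOXM1 complexes in dividing cells, and the CCAAT box is bound by NF-Y. Promoters came from RefSeq on GRCh38.p14 and run from 250 bases before to 50 bases after an annotated start. A promoter was found for 38 of the 42 genes, and 6 of these had more than 1 annotated start, which gave 45 promoters. TPX2, NCAPH2, RACGAP1 and AURKA had no entry. Shown here are 8 of them, chosen to set 6 promoters that carry the CHR core close to the start against those of KIF22 and CEP192, the least changed spindle motor and centriole gene. Each runs from 100 bases before to 30 bases after the start (for KIF22, the first of its 2 listed starts) and is written 5′ to 3′ on the gene's strand. Capitals mark TTTGAA and CCAAT on either strand, so that TTCAAA and ATTGG are the same words read on the other strand. Neither word contains the other, and the 2 CCAAT matches that overlap in HMMR read from opposite strands. The positions are chr3:44761694-44761823 (plus strand) for KIF15, chr10:92593030-92593159 (plus) for KIF11, chr5:163460532-163460661 (plus) for HMMR, chr4:17810879-17811008 (plus) for NCAPG, chr12:119877291-119877420 (minus) for CIT, chr16:23678789-23678918 (plus) for PLK1, chr16:29790651-29790780 (plus) for KIF22 and chr18:12991262-12991391 (plus) for CEP192.
KIF15: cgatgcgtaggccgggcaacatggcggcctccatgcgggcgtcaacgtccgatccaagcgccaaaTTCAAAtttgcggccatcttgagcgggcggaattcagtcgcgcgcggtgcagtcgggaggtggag
KIF11: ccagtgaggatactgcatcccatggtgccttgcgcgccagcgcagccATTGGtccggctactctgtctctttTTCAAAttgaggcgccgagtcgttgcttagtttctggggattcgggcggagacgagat
HMMR: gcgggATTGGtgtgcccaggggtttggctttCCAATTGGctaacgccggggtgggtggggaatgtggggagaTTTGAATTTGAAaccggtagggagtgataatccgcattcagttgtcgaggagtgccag
NCAPG: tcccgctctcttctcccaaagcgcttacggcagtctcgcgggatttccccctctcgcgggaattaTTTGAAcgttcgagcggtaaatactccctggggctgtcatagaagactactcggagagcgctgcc
CIT: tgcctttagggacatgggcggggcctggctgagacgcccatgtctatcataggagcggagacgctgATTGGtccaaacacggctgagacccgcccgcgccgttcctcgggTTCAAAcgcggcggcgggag
PLK1: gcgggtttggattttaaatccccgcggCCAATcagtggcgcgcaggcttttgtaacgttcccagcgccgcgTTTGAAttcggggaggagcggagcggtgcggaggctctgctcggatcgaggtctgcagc
KIF22: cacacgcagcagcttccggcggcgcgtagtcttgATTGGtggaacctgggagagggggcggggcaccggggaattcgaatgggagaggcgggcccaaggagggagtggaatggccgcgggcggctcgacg
CEP192: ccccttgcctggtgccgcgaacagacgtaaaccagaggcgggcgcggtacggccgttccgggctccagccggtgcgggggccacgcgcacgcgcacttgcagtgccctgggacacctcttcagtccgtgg
The CHR core began 35 bases before the start in KIF15, 28 bases before in KIF11, 35 bases before in NCAPG and 29 bases before in PLK1. In CIT it lay 10 bases after the start. HMMR carried it as a tandem repeat, at 28 and 22 bases before the start. No capitals of the CHR core appear in the windows of KIF22 and CEP192, although a further match lay 194 bases before the start of CEP192, outside the stretch shown. The window of KIF22 does hold a variant of the core, TTCGAA, left in small letters, 27 bases before the start. KIF22 and CEP192 were picked by their small change, so these windows do not show how core and rise go together across the panel. KIF20A and KIF2C, without TTTGAA, rose by log2 3.13 and 2.94. CKAP5 and NCAPD3, with the core within 50 bases of a start, rose by log2 0.69 and 1.21. Medians with and without the core are given below.

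Over all 45 promoters of the panel, 31 (68.9%) held TTTGAA on either strand, against 15.2% of the 35116 promoters in the table and 10.3% of the 16036 promoters of genes tested here. When the match was required to lie within 50 bases of the start, the shares were 53.3%, 4.62% and 2.97%. CCAAT was present in 28 promoters (62.2%), against 34.6% of all promoters and 34.6% of those of tested genes, and 23 promoters (51.1%) held both words, against 5.90% and 4.10%. The variant core TTCGAA was found in 2 promoters of the panel (4.44%, against 1.45% of all and 1.62% of those of tested genes). Both were of KIF22, whose listed starts share the same site. The E2F words TTTCCCGC, TTTCGCGC, TTTGCCGC and TTTGGCGC, searched together on both strands, were found in 6 promoters (13.3%, against 3.31% of all and 4.76% of those of tested genes). The cytokinesis factors carried the CHR core in 6 of 6 promoters. These belong to 5 genes, as ECT2 has 2 listed starts that share a site. The spindle assembly factors carried the core in 6 of 8 promoters, the spindle motors in 9 of 13 and the condensins in 6 of 10. The centriole genes carried it in 3 of 7, of which 1 lay within 50 bases of the start. These classes also differed in the other words. E2F words were found in 3 of the 7 centriole promoters, out of 6 in the panel. CCAAT was found in 3 of the 10 condensin promoters (30%), under the 34.6% of all promoters. The panel was listed by mitotic function, and these words are known elements of mitotic promoters. An excess over all promoters could thus be foreseen from the choice of genes, whatever these libraries hold. A match is a description of the letters and not evidence of binding.

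**Figure D1:**
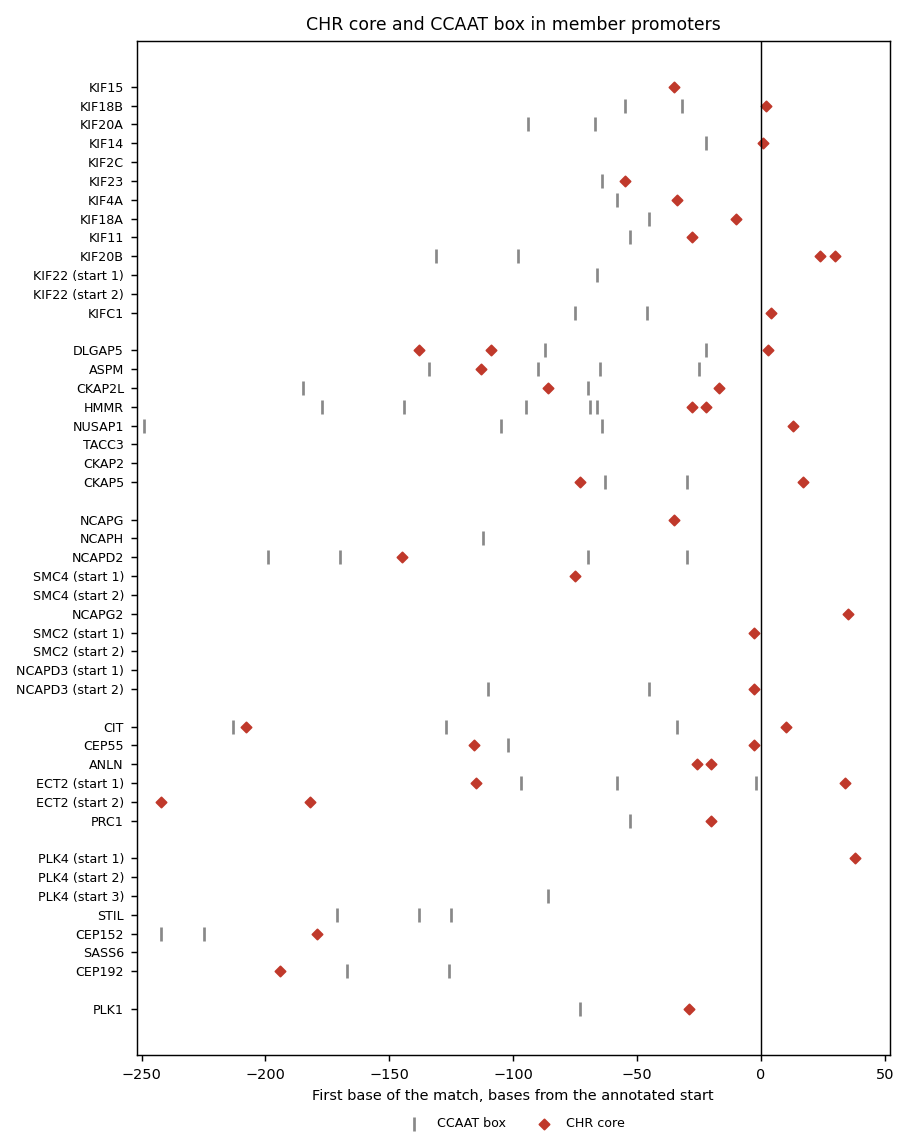
Position of the first base of each match to the CHR core (red diamonds) and the CCAAT box (grey bars) in 45 promoters of 38 genes, in bases from the annotated start (0, vertical line), grouped from top to bottom as spindle motors, spindle assembly factors, condensins, cytokinesis factors, centriole genes and PLK1. Within 50 bases of the start, 24 of the 45 promoters carry a CHR core, and the centriole genes carry 1 of these.

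The comparison of LN95(KO) with LNCaP95 asked which transcripts differ between the knockout line and its parent. The loss of UGT2B17 and other differences between the lines cannot be told apart in these libraries. Of the 42 genes, 41 had enough reads to be tested, and 39 of these rose in LN95(KO) at an adjusted p under 0.05 and a fold change over 2, while 0 fell, also at an unadjusted p under 0.05 and with DESeq2 (edgeR quasi-likelihood test, Benjamini-Hochberg adjustment over all 15626 genes tested). Over all genes tested, 8.86% were called higher and 9.13% were called lower by the same rule. Both LN95(KO) libraries lay above both LNCaP95 libraries for all 41 genes, as they did for 39.8% of all genes tested. The median log2 fold change of the 41 genes was 2.73, or 6.62-fold, against -0.01 over all genes tested. A log2 fold change over 2 was reached by 28 of the 41 genes and by 561 of all 15626 (3.59%), and 12 of the 41 exceeded 3. The genes that were not called, CKAP5 and NCAPH2, had adjusted p-values under 0.05 but less than a 2-fold rise. Summed over the panel, the level was 663 and 673 CPM in LNCaP95 and 2436 and 2843 CPM in LN95(KO).

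**Figure D2:**
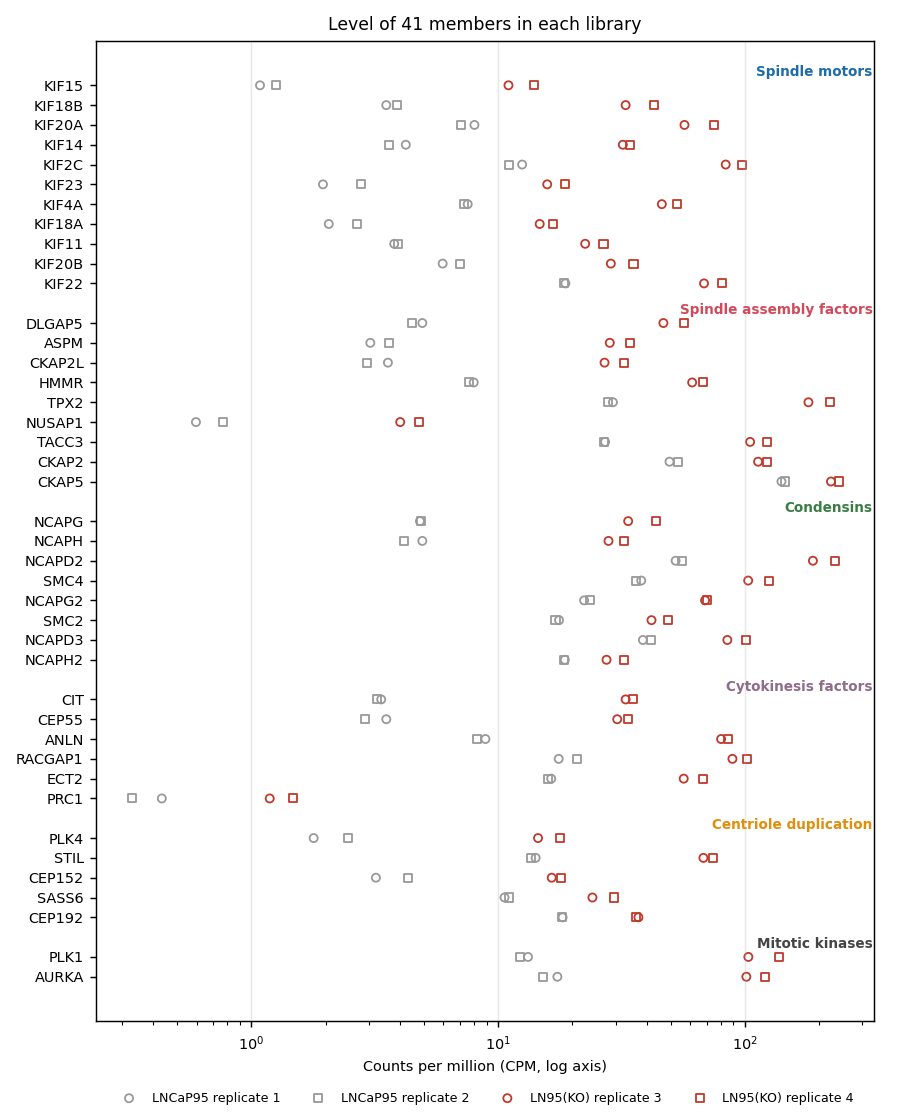
Level of 41 genes in CPM (log axis) in each of the 4 libraries, grouped by function and ordered within a group by fold change, with LNCaP95 in grey and LN95(KO) in red (circles for replicates 1 and 3, squares for replicates 2 and 4). KIFC1, at 0 in LNCaP95, is left out. In every row both red symbols lie to the right of both grey ones, with the narrowest gaps at CKAP5 and NCAPH2.

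The spindle motors rose together. All 11 that were tested were called higher, with a median log2 fold change of 2.87 and a range from 2.00 for KIF22 to 3.41 for KIF15. Their summed level was 69.4 and 69.1 CPM in LNCaP95 and 413 and 496 CPM in LN95(KO). KIF15 (chr3:44803213-44914868; positions of genes are given in hg19), a plus-end motor that helps hold the spindle poles apart, was counted 20 and 23 times in LNCaP95 and 195 and 256 times in LN95(KO). The groups did not overlap, and the fold change of 10.7 was the largest among the motors (log2 3.41 ± 0.20 SE, adjusted p = 1.5e-10). KIF11 (chr10:94333862-94415152), the kinesin that slides the microtubules of opposite poles apart and is the target of spindle-poison inhibitors such as monastrol, had 3.79 and 3.93 CPM in LNCaP95 and 22.5 and 26.7 CPM in LN95(KO). Its log2 fold change was 2.67 ± 0.13 (adjusted p = 1.1e-11). Per kilobase of transcript, KIF15 stood at 0.301 and 0.337 of the KIF11 level in LNCaP95 and at 0.515 and 0.553 in LN95(KO), so the motor that can stand in for KIF11 was closer to it in the knockout. KIF22 (chr16:29802048-29816706), a chromokinesin that pushes chromosome arms away from the poles, rose least in this class. It was at 18.7 and 18.5 CPM in LNCaP95 and 68.4 and 80.6 CPM in LN95(KO), a 4.0-fold difference (log2 2.00 ± 0.08, adjusted p = 1.7e-12).

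The remaining motors lay between these. KIF18B and KIF18A, which shorten or steady microtubule plus ends, rose by log2 3.35 and 2.73. KIF2C, which takes microtubules apart at the kinetochore, rose by log2 2.94 and had the highest level per kilobase of the class after KIF22, at 29.2 and 34.2 CPM per kilobase in LN95(KO). KIF4A, a chromokinesin that also works with PRC1 in the central spindle, rose by log2 2.75. The kinesins that act mainly at the central spindle and midbody, KIF20A, KIF14, KIF23 and KIF20B, rose by log2 3.13, 3.08, 2.87 and 2.31. KIFC1, the minus-end motor that gathers extra centrosomes into 2 poles, was counted 0 and 0 times in LNCaP95 and 3 and 7 times in LN95(KO). It did not pass the filter on low counts, 14.0% of its exon bases lie under another annotated gene, and no fold change is given.

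Among the 9 spindle assembly factors, 8 were called higher, with a median log2 fold change of 2.82. DLGAP5 (chr14:55614830-55658326), which bundles microtubules near the chromosomes, showed the largest rise of the whole panel. It stood at 4.93 and 4.48 CPM in LNCaP95 and at 46.8 and 56.7 CPM in LN95(KO), an 11-fold difference (log2 3.46 ± 0.12, adjusted p = 1.0e-13). At the other end, CKAP5 (chr11:46764598-46867859), a microtubule polymerase also known as ch-TOG that interphase cells use as well, was at 141 and 146 CPM in LNCaP95 and 224 and 240 CPM in LN95(KO). The groups did not overlap, but the difference of 1.62-fold (log2 0.69 ± 0.05, adjusted p = 4.0e-09) was under the 2-fold limit. CKAP5 was the most abundant gene of the panel per kilobase in LNCaP95, at 19.6 and 20.4 CPM per kilobase, and was passed in LN95(KO) by 7 others.

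TPX2, which activates AURKA on spindle microtubules, rose by log2 2.82, and HMMR, a microtubule-binding hyaluronan receptor of the spindle poles, by 3.04. ASPM, which focuses microtubule minus ends, rose by log2 3.23. TACC3, which binds CKAP5 and clathrin on kinetochore fibres, rose by log2 2.08, and its level per kilobase went from 0.494 and 0.470 of that of CKAP5 to 1.20 and 1.31. The paralogs CKAP2 and CKAP2L, both spindle-associated, differed in size of change, at log2 1.20 and 3.18. CKAP2L was at 0.055 and 0.042 of the CKAP2 level per kilobase in LNCaP95 and at 0.183 and 0.202 in LN95(KO). NUSAP1, which links microtubules to chromosomes, was counted 11, 14, 71 and 87 times (log2 2.68 ± 0.27), but 86.8% of its exon bases lie under other annotated genes. Reads that fall on more than 1 gene are left out by htseq as ambiguous (9.82% to 10.4% of all reads in these libraries), so this count need not reflect the whole transcript. OIP5, which overlaps it, was counted 21 and 21 times in LNCaP95 and 159 and 226 times in LN95(KO).

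**Figure D3:**
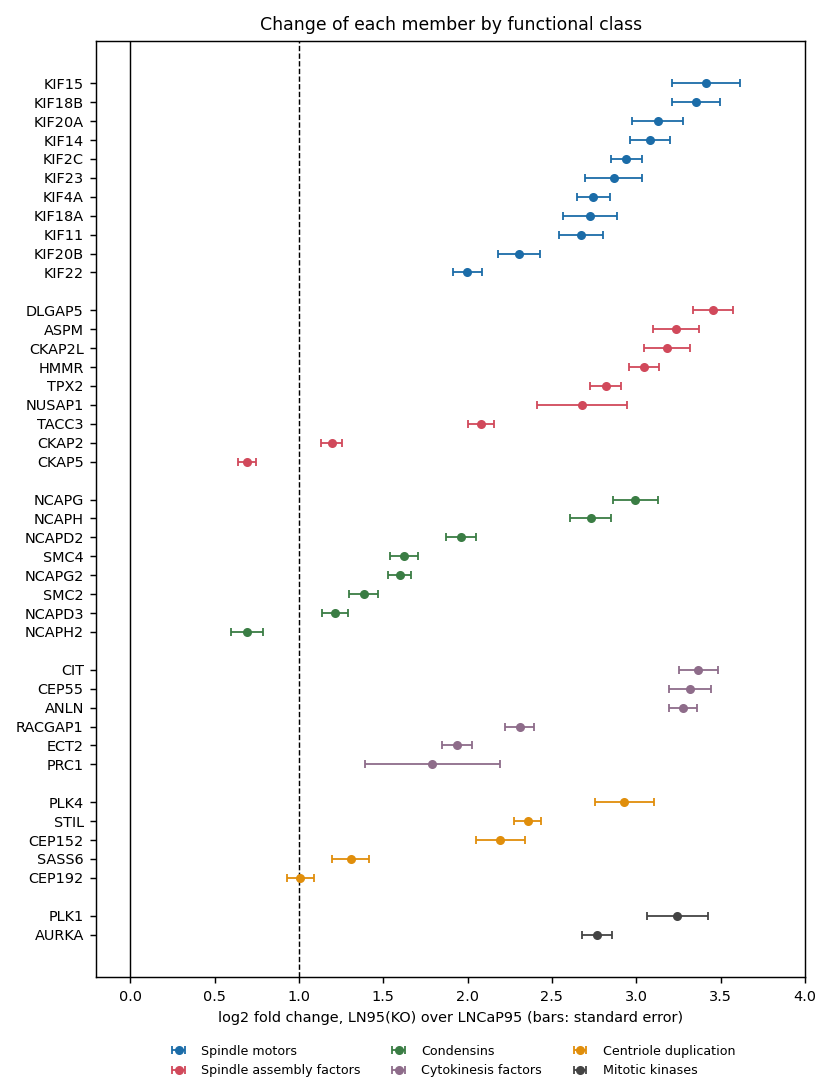
Log2 fold change of LN95(KO) over LNCaP95 for 41 genes with the standard error from the edgeR fit (bars), coloured by functional class; the dashed line marks a 2-fold change. Spindle assembly factors and condensins each reach down to 0.69 and centriole genes to 1.01, whereas spindle motors start at 2.00.

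Condensins changed less than the motors, and unevenly. Of 8 subunits, 7 were called higher, and the median log2 fold change was 1.61. SMC2 and SMC4, the ATPase core shared by condensin I and condensin II, both rose. SMC2 (chr9:106856541-106903700) was at 17.7 and 17.1 CPM in LNCaP95 and 41.9 and 48.8 CPM in LN95(KO), with a log2 fold change of 1.38 ± 0.09 (adjusted p = 4.2e-10). SMC4 (chr3:160117062-160152742) was at 38.0 and 36.2 CPM against 103 and 125 CPM, with a log2 fold change of 1.62 ± 0.08 (adjusted p = 8.2e-10). The level of SMC2 per kilobase went from 0.401 and 0.407 of that of SMC4 to 0.350 and 0.336, with no overlap. In both cases the LN95(KO) libraries were clear of the LNCaP95 libraries, and for SMC4 22% of exon bases lie under IFT80 or TRIM59.

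The subunits particular to condensin I, which reaches chromosomes after the nuclear envelope breaks down, were NCAPG, NCAPH and NCAPD2, at log2 3.0, 2.73 and 1.96. Those of condensin II, which is nuclear throughout the cycle, were NCAPG2, NCAPD3 and NCAPH2, at log2 1.6, 1.21 and 0.69. NCAPG (chr4:17812602-17846488) was at 4.82 and 4.86 CPM in LNCaP95 and 33.7 and 43.6 CPM in LN95(KO), the largest rise of the class (log2 3.0 ± 0.13, adjusted p = 3.6e-12), with 33.7% of its exon bases under LCORL. NCAPH2 (chr22:50946653-50963209) was at 18.6 and 18.5 CPM against 27.5 and 32.5 CPM, a 1.62-fold difference that was not called (log2 0.69 ± 0.09, adjusted p = 6.1e-06), with 27.2% of its exon bases under SCO2 or a further annotated gene. Each condensin I subunit therefore stood above its condensin II counterpart in size of change. The level of NCAPH per kilobase was 0.146 and 0.124 of that of NCAPH2 in LNCaP95, and the ratio moved 4.12-fold to 0.564 and 0.550 in LN95(KO). The corresponding ratio of NCAPG to NCAPG2 went from 0.191 and 0.181 to 0.431 and 0.549. That of NCAPD2 to NCAPD3 went from 2.07 and 2.04 to 3.39 and 3.50. No ratio overlapped between the groups, and NCAPD2 was the subunit with most RNA per kilobase in either line. These 3 pairs of genes, like the other pairs given in this section, were described without a test of the ratio itself. Small changes can also lack overlap: the ratio of CIT to ANLN changed 1.07-fold and did not overlap either. Reads left out as ambiguous may lower the level per kilobase of genes that share exon bases, such as SMC4 and NCAPG.

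All 6 cytokinesis factors were called higher, with a median log2 fold change of 2.79. CIT (chr12:120123596-120315124), the citron kinase that organises the midbody, was at 3.36 and 3.22 CPM in LNCaP95 and 32.9 and 35.2 CPM in LN95(KO). With groups far apart, it rose 10.3-fold (log2 3.37 ± 0.12, adjusted p = 1.1e-13). CEP55, which recruits the abscission machinery, and ANLN, the anillin scaffold of the contractile ring, rose by log2 3.32 and 3.28. RACGAP1 and ECT2, the RhoA regulators that place the division furrow, rose by log2 2.31 and 1.94. RACGAP1 pairs with KIF23 in the centralspindlin complex, and KIF23 stood at 0.094 and 0.113 of the RACGAP1 level per kilobase in LNCaP95 and at 0.151 and 0.156 in LN95(KO). PRC1 (chr15:91509270-91538859), which bundles the antiparallel microtubules of the central spindle, was counted 8 and 6 times in LNCaP95 and 21 and 27 times in LN95(KO). The counts are low, with a log2 fold change of 1.79 ± 0.40 (adjusted p = 0.00092), and the ratio of the summed counts had a 95% exact binomial interval from 1.90 to 6.89, which covers counting error only. For PRC1, 61.9% of exon bases lie under other annotated genes and the same limit applies, and ENSG00000284946, which shares its exons, was counted 14, 19, 82 and 95 times. The call of PRC1 was lost with DESeq2 (adjusted p = 0.052) and when the test was made against a 2-fold change (adjusted p = 0.082).

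All 5 centriole duplication genes were called higher, with a median log2 fold change of 2.20. PLK4 (chr4:128802048-128820379), the kinase whose level sets the number of new centrioles, was at 1.79 and 2.46 CPM in LNCaP95 and 14.5 and 17.9 CPM in LN95(KO). It rose 7.62-fold, the most in its class (log2 2.93 ± 0.17, adjusted p = 1.6e-10). STIL, which PLK4 phosphorylates and which brings SASS6 to the new centriole, rose by log2 2.36. SASS6, which forms the cartwheel that gives the centriole its symmetry, rose by log2 1.31. PLK4 stood at 0.169 and 0.223 of the SASS6 level per kilobase in LNCaP95 and at 0.603 and 0.608 in LN95(KO). Of the scaffolds that recruit PLK4 to the mother centriole, CEP152 rose by log2 2.20. CEP192 (chr18:12991361-13125051), the other scaffold, was at 18.3 and 18.2 CPM in LNCaP95 and 37.1 and 36.3 CPM in LN95(KO). Its difference of 2.01-fold sat at the limit of the rule (log2 1.01 ± 0.08, adjusted p = 7.6e-09). The call of CEP192 was lost with upper-quartile factors (log2 0.97), without LN95(KO) replicate 3 (log2 0.998) and in a test against a 2-fold change (adjusted p = 1). The ratio of CEP152 to CEP192 per kilobase was 0.251 and 0.340 in the LNCaP95 libraries, against 0.637 and 0.707 in LN95(KO).

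Both mitotic kinases rose. AURKA (chr20:54944445-54967393), which matures the spindle poles, was at 17.4 and 15.2 CPM in LNCaP95 and 101 and 121 CPM in LN95(KO), with no overlap of the groups. Its log2 fold change was 2.77 ± 0.09 (adjusted p = 3.5e-13), close to that of its activator TPX2. The ratio of AURKA to TPX2 per kilobase was 1.02 and 0.936 in the LNCaP95 libraries, against 0.957 and 0.935 in LN95(KO), and these ranges overlapped. PLK1 (chr16:23688977-23701688), which acts from mitotic entry to cytokinesis, was at 13.2 and 12.2 CPM against 103 and 138 CPM. The log2 fold change of PLK1 was 3.24 ± 0.18 (adjusted p = 4.5e-05), and its LN95(KO) libraries were farther apart than those of any other of the 41 tested genes, at log2 0.41. Per kilobase, TPX2, PLK1 and AURKA were the most abundant genes of the panel in LN95(KO), at 57.9, 55.8 and 54.7 CPM per kilobase.

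Genes with less RNA in LNCaP95 showed larger changes. The 22 genes under 10 CPM in LNCaP95 had a median log2 fold change of 3.02 (range 1.79 to 3.46), and the 19 genes at or over 10 CPM had a median of 1.94 (range 0.69 to 3.24). Across the 41 genes, Spearman's rho between log2 fold change and level in LNCaP95 was -0.60, a description over genes that are not independent, and with the LNCaP95 level entering both measures. Against the level in LN95(KO), rho was -0.18. The 29 tested genes with a CHR core in at least 1 promoter had a median log2 fold change of 2.75 (range 0.69 to 3.46), and the 8 without one had a median of 2.22 (range 1.20 to 3.13). With the core within 50 bases of the start, the median was 2.93 over 23 genes, against 2.14 over the other 14. The 27 tested genes with a CCAAT box had a median of 2.73 (range 0.69 to 3.46), and the 10 without one had a median of 1.85 (range 1.20 to 3.41). The ranges overlapped in each of these splits, and CKAP5, with the core 17 bases after its start, was among the least changed genes. KIF20A and KIF2C, without TTTGAA in their promoters, rose by log2 3.13 and 2.94.

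LN95(KO) replicate 4 lay above replicate 3 for 40 of the 41 genes, the exception being CEP192. The median log2 ratio of replicate 4 to replicate 3 was 0.24, against 0.00 over the 15461 genes with reads in every library, of which 50.9% were higher in replicate 4. In LNCaP95, replicate 2 lay above replicate 1 for 18 of the 41 genes, with a median of -0.02. The shift was largest for PLK1, KIF20A, KIF18B and NCAPG (log2 0.37 to 0.41) and smallest for CIT, ANLN, NCAPG2 and CEP192 (log2 -0.03 to 0.10). Genes of the panel thus moved together between the LN95(KO) libraries and are not replicates of each other. Without replicate 4, 39 of 41 genes were still called, and without replicate 3, 38 were.

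**Figure D4:**
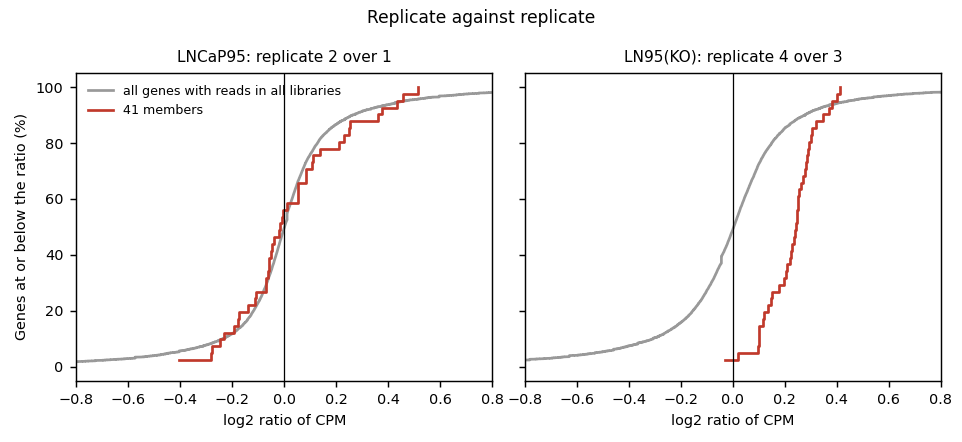
Cumulative share of genes (%) at or below a log2 ratio of CPM between the 2 libraries of a group, for the 41 genes (red) and for all 15461 genes with reads in every library (grey). In LN95(KO) the red line is shifted to the right of 0, with a median of 0.24 and 40 of 41 genes above 0; in LNCaP95 both lines cross 0 near the middle. The axis is cut at -0.8 and 0.8.

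Related genes outside the panel were read from the same fit. Their counts of called genes are to be read against 8.86% called higher and 9.13% called lower over all genes tested. The other kinesins are a mixed list, of which many carry cargo along interphase microtubules and in cilia. Of these kinesins, 26 of 30 could be tested, with 5 called higher, 4 called lower and a median log2 fold change of -0.04. At an unadjusted p under 0.05, 9 of these kinesins were higher and 11 lower. Of all 15626 genes tested, 4650 were higher and 4699 lower even at an adjusted p under 0.05 without a fold limit. Counts at an unadjusted p in this and the following lists are to be read against that share. The called genes were KIF7, KIF24, KIF25, KIF21B and KIF5C on the higher side and KIF5A, KIF1A, KIF6 and KIF26A on the lower side. KIF7, a regulator of hedgehog signalling in cilia, had the largest rise, but on counts of 1, 3, 12 and 16 (ratio of summed counts 7.16, 95% interval 2.50 to 28.1). KIF5A, a motor of neurons, had the largest fall, with counts of 27, 30, 1 and 5 (9.29-fold lower, 95% interval 4.01 to 26.4). KIF1A, a carrier of synaptic vesicle precursors picked out after its values were seen, fell from 214 and 221 CPM to 26.9 and 26.6 CPM (log2 -3.02 ± 0.06, adjusted p = 3.7e-17). Summed over the list, other kinesins stood at 1245 and 1295 CPM in LNCaP95 and 1001 and 981 CPM in LN95(KO). Without KIF1A the sums were 1031 and 1074 CPM against 974 and 954 CPM.

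Cohesin, its loaders and regulators and the SMC5/6 complex share the SMC architecture with condensin. Of these 16 genes 0 were called in edgeR, and 0 in DESeq2. An adjusted p under 0.05 was reached by 10 of the 16 at smaller folds, against 9349 of all 15626 genes without a fold limit. At an unadjusted p under 0.05, 6 were higher and 5 lower. The log2 fold changes ran from -0.40 for PDS5A to 0.71 for SMC1A. Their median was 0.04, against 1.61 for the condensins. Among other spindle factors, 23 of 24 were tested, 5 were called higher and 1 lower, with a median of 0.33. At an unadjusted p under 0.05, 15 of the 23 were higher and 5 lower. HAUS8, an augmin subunit, rose most, from 2.49 and 2.40 CPM to 7.68 and 10.6 CPM (log2 1.90 ± 0.19, adjusted p = 1.7e-07). TACC1, RCC1, KPNA2 and RANGAP1 were also called higher, and MAPRE2, an end-binding protein of microtubules, fell from 27.0 and 23.1 CPM to 9.83 and 11.9 CPM (log2 -1.20 ± 0.11, adjusted p = 7.0e-08).

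Other cytokinesis genes comprised RhoA and its kinases, myosins, septins and the ESCRT machinery of abscission, which cells also use outside division. Of 20 such genes 19 were tested, with 0 called higher, 1 called lower and a median log2 fold change of -0.15. At an unadjusted p under 0.05, edgeR gave 2 higher and 8 lower, and DESeq2 also called 0 higher and 1 lower. SEPTIN11 was the gene that fell, from 52.7 and 55.1 CPM to 19.7 and 19.9 CPM (log2 -1.44 ± 0.07, adjusted p = 2.2e-11). Among 26 other centrosome genes, 2 were called higher and 0 lower by edgeR and by DESeq2, with a median of 0.31. At an unadjusted p under 0.05, edgeR gave 18 of these 26 higher and 1 lower. CPAP, which lengthens new centrioles, rose from 4.71 and 3.28 CPM to 13.2 and 14.6 CPM (log2 1.80 ± 0.16, adjusted p = 2.9e-08), and TUBG1, the gamma-tubulin that nucleates microtubules, rose by log2 1.21. Over the 5 lists together, 12 of 110 genes tested were called higher and 6 lower, against 8.86% and 9.13% of all genes tested. A CHR core was present in 18 of the 143 promoters of these lists (12.6%). By list, these were 8 of 35 promoters of other spindle factors (22.9%), 6 of 29 of other centrosome genes (20.7%), 2 of 17 of other SMC complexes (11.8%), 1 of 32 of other cytokinesis genes (3.13%) and 1 of 30 of other kinesins (3.33%). The E2F words were found in 13 of the 143 promoters (9.09%, against 13.3% in the panel), of which 5 were among the 17 of other SMC complexes (29.4%).

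**Figure D5:**
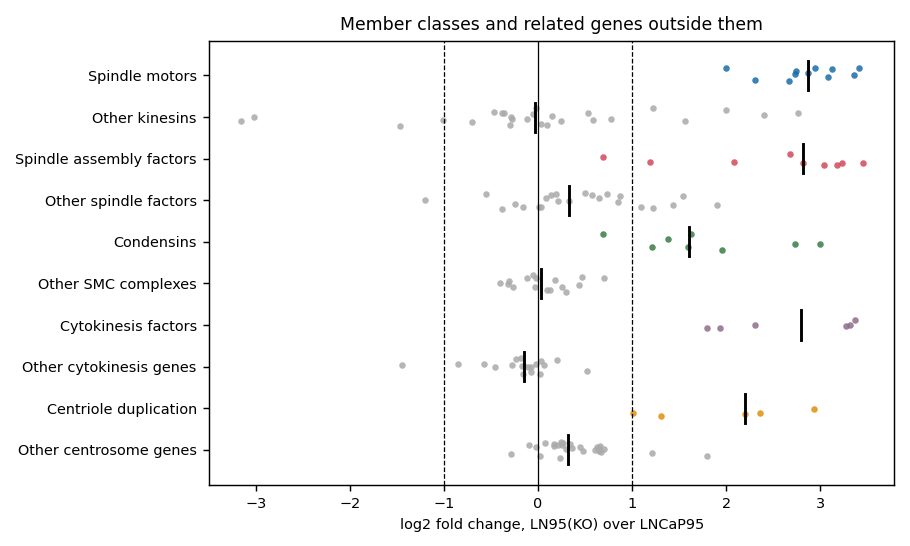
Log2 fold change of LN95(KO) over LNCaP95 for each tested gene of 5 functional classes of the panel (coloured) and of the list of related genes under each (grey); black bars are medians, dashed lines mark a 2-fold change, and vertical scatter within a row carries no meaning. Medians of the panel's classes run from 1.61 to 2.87 and those of the related lists from -0.15 to 0.33. Classes and lists were chosen with earlier results of these data known.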

How the data were processed

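Raw counts per gene were deposited by the authors, who mapped the reads to hg19 (hisat2 2.1.0) and counted them with htseq, without strand on GENCODE, so reads of overlapping genes cannot be separated. Libraries were poly(A)-selected and sequenced on DNBseq. The series table and the single files differed in 0 cells. The 5 summary lines per file were left out. Symbols came from GENCODE lifted to GRCh37, a later release than the one counted, which named 59858 of 60880 identifiers; the others held 0.0594% of gene reads. Coordinates, exon overlap and transcript length (canonical transcript) came from the same annotation.

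Counts were fitted in R 4.3.3 with edgeR 4.0.16 (TMM factors, filterByExpr with a minimum count of 10, robust glmQLFit and glmQLFTest) on all 4 libraries with no covariate. Genes were called at a Benjamini-Hochberg adjusted p under 0.05 and a fold over 2. CPM used TMM-scaled library sizes. With 2 libraries against 2 a two-sided permutation test of a single value cannot go below p = 0.333. The fit was tested on simulated counts. DESeq2 1.42.0, other scaling factors, no filter, other call rules, left-out libraries and other class definitions were tried. The genes, classes and related lists were chosen with earlier results of these data known, and no list was tested. Values per library are given for the largest and smallest change in each class, for genes not called higher and for AURKA, PLK1, PLK4, KIF11, SMC2 and SMC4, and in each related list for the called gene with the largest change in each direction.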

Additional observations from a re-analysis of the deposited data

Results flagged for a closer look

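Reads that did not align lie outside the gene counts, and their share was higher in both LN95(KO) libraries, at 7.71% and 8.05% of all reads, than in the LNCaP95 libraries, at 3.85% and 3.96%. The part of these reads in the values of the mitotic genes was not tested.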

How the results depend on the processing

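No paired analysis was possible because LNCaP95 is numbered 1 and 2 and LN95(KO) 3 and 4. The direction of each tested gene of the panel was the same under all alternatives. The number of genes of the panel called was 38 to 39 when 1 library was left out, 38 with DESeq2 (all 38 also called by edgeR), 37 in a test against a 2-fold change, 41 without a fold limit and 40 of 42 without the filter on low counts, which brought in KIFC1. Among genes with under 10% exon overlap, 33 of 34 were called. Without a fold limit CKAP5 and NCAPH2 were called. Over all genes, the number called was 2811, 1687 in a test against a 2-fold change and 9349 without a fold limit. When 1 library was left out, class medians ranged from 2.74 to 2.99 for spindle motors, 2.67 to 2.96 for spindle assembly factors, 1.53 to 1.69 for condensins and 1.99 to 2.33 for centriole genes. Moving KIF14, KIF20A, KIF20B and KIF23 to the cytokinesis factors left 7 motors called (median log2 2.75) and gave 10 cytokinesis factors called (median 2.97). From summed CPM, which abundant genes dominate, the log2 ratio was 2.71 for spindle motors, 1.65 for spindle assembly factors, where CKAP5 and CKAP2 hold much of the sum, 1.66 for condensins, 2.60 for cytokinesis factors and 1.78 for centriole genes, so by this measure spindle assembly factors did not exceed condensins. PRC1, NUSAP1 and KIFC1 had counts under 20 in LNCaP95, and the part of reads left out as ambiguous in these counts was not tested.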
